A study of Rattus norvegicus with 30 samples.

Results

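*Rgs4* and 9 other genes of the RGS family were followed in cultured rat hippocampal neurons exposed to dimethyl fumarate (DMF), its metabolite monomethyl fumarate (MMF) or cannabidiol (CBD). The 10 genes, *Rgs3*, *Rgs4*, *Rgs5*, *Rgs7*, *Rgs8*, *Rgs10*, *Rgs12*, *Rgs14*, *Rgs16* and *Rgs17*, were taken by their symbols from the 21993 genes listed. They were picked because *Rgs4* was lower with DMF at 4 h and higher at 24 h. The members' DMF values against DMSO and between the DMF times are therefore given as a description, without p-values. Counts of members called in these comparisons rest on the same values and are no test of the members.

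Hippocampal neurons came from Wistar rat embryos at embryonic day 18 and were grown for 7 days before treatment. DMF or MMF, both at 30 µM and dissolved in dimethyl sulfoxide (DMSO), or CBD at 6 µM, dissolved in ethanol (EtOH), was given for 4 h or 24 h. The matching controls received DMSO or EtOH alone, and the vehicle made up 0.2% of the medium in every group. The 10 groups, each drug and each vehicle at both times, held 3 libraries each, numbered 1 to 3, and the study describes them as independent experiments. All groups shared the strain, the age and the culture conditions.

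RGS proteins bind the active, GTP-loaded alpha subunit of a heterotrimeric G protein and speed up the hydrolysis of its GTP. They thereby shorten the signal that a G protein-coupled receptor sends through its alpha subunit and through the released beta and gamma subunits. In neurons they set how long transmitters such as glutamate, acetylcholine, noradrenaline and opioids act through their Gi- and Gq-coupled receptors. *Rgs4*, *Rgs8*, *Rgs16*, *Rgs3* and *Rgs5* belong to the R4 subfamily, whose members act on Gi/o and in part on Gq alpha subunits. *Rgs10*, *Rgs12* and *Rgs14* form the R12 subfamily, *Rgs7* is an R7 member that works as a dimer with the beta subunit encoded by *Gnb5*, and *Rgs17* is an RZ member.

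The libraries held between 15108132 and 25367834 reads on genes, with a median of 20088658. Neuron markers were all listed, 11 of 11, and their sum ran from 4005 to 5900 CPM (reads scaled to a common library total) over the libraries. Astrocyte markers, 7 of 7 listed, summed to between 2042 and 5150 CPM in these neuron cultures. Microglia markers summed to at most 12.2 CPM, and *Cx3cr1*, *P2ry12* and *Tmem119*, which define that cell type, had medians of 0.0742, 0.176 and 0.102 CPM. In such bulk samples, fewer cells of a type and less RNA per cell cannot be told apart.

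5 of the 10 genes lie on chromosome 13 of the mRatBN7.2 build used for the counts. *Rgs8* (65804797 to 65846807) and *Rgs16* (65887530 to 65892857) are neighbours with 40722 bases between them. *Rgs5* (81836304 to 81885518) and *Rgs4* (81936775 to 81943068) are separated by 51256 bases, and *Rgs7* (86979279 to 87408888) lies further along the same chromosome. *Rgs10* (182946336 to 182987697) and *Rgs17* (42227070 to 42324609) are on chromosome 1, *Rgs3* (76022001 to 76161894) on chromosome 5, *Rgs12* (75715934 to 75794596) on chromosome 14 and *Rgs14* (9249019 to 9263104) on chromosome 17. A listed gene of another name overlaps *Rgs12*, and the counting's use of strand is not given in the sources used here, so reads of the *Rgs12* overlap may belong to either gene.

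The start regions of *Rgs4*, of its subfamily members *Rgs8* and *Rgs16*, and of *Rgs10* are shown, as 4 of the genes with differences described below. Each run holds the 250 bases before the RefSeq gene start on the GRCr8 build, read 5′ to 3′ on the gene's strand, and capitals mark 3 motifs on either strand. The first is CCAAT, which reads ATTGG on the other strand. The second is TATAAA, with TTTATA on the other strand, and the third is TGACG, with CGTCA there.
Rgs4 (chr13:84475885-84476134, minus strand): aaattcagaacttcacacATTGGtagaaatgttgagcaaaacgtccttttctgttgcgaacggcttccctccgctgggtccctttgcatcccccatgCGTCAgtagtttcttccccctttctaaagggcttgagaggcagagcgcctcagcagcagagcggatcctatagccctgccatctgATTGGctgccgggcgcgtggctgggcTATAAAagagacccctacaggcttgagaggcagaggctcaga
Rgs8 (chr13:68366648-68366897, plus strand): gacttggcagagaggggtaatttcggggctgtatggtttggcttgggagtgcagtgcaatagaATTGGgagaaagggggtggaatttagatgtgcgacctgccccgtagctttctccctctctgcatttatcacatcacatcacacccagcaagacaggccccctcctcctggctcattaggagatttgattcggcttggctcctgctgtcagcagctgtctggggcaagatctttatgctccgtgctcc
Rgs16 (chr13:68437870-68438119, plus strand): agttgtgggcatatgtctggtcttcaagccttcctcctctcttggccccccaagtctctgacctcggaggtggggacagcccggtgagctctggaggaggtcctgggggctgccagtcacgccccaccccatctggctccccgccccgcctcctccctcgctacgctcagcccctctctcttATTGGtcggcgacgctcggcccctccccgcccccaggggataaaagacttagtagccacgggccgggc
Rgs10 (chr1:192418078-192418327, minus strand): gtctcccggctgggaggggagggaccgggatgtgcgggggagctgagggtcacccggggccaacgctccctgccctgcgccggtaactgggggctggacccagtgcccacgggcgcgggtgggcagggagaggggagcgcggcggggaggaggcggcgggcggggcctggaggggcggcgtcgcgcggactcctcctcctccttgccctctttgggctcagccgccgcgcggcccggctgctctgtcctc

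The motifs were chosen after the letters of these regions had been seen, and the marked matches do not overlap each other. *Rgs4* held ATTGG at 232 to 228 and at 68 to 64 bases before its start, CGTCA at 153 to 149 and TATAAA at 42 to 37. *Rgs16* held ATTGG at the same 68 to 64 bases, *Rgs8* held it at 187 to 183, and *Rgs10* held no match. *Rgs12*, *Rgs14* and *Rgs17*, which also have differences described below but are not shown, held no match either. Over the 10 genes, CCAAT on either strand was found in 3, TATAAA in 2 and TGACG in 2. Among all 33469 RefSeq start regions of this length, the shares were 34.0%, 12.9% and 18.2%. A match is a string of letters and shows no binding.

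*Rgs4* had 431 to 3761 reads per library, with a median of 1068. On a common scale for the 30 libraries, its mean normalized count (reads divided by a library's size factor) was lowest after CBD for 24 h, at 637 ± 121 (SD, n = 3). DMF at 4 h followed with 722 ± 90.6 and CBD at 4 h with 805 ± 233. Then came MMF at 24 h with 1013 ± 140, DMSO at 24 h with 1086 ± 167, MMF at 4 h with 1090 ± 143 and EtOH at 4 h with 1112 ± 276. EtOH at 24 h had 1151 ± 146 and DMSO at 4 h had 1307 ± 112. DMF at 24 h stood at 3441 ± 502.

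The ranges of neighbours in this order overlapped at each step up to DMSO at 4 h. Only the last step, from DMSO at 4 h (1193 to 1417) to DMF at 24 h (2986 to 3978), had ranges apart. The mean after DMF for 24 h was 5.40 times the mean after CBD for 24 h. By replicate number this ratio was 6.67, 5.97 and 4.03.

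**Figure D1:**
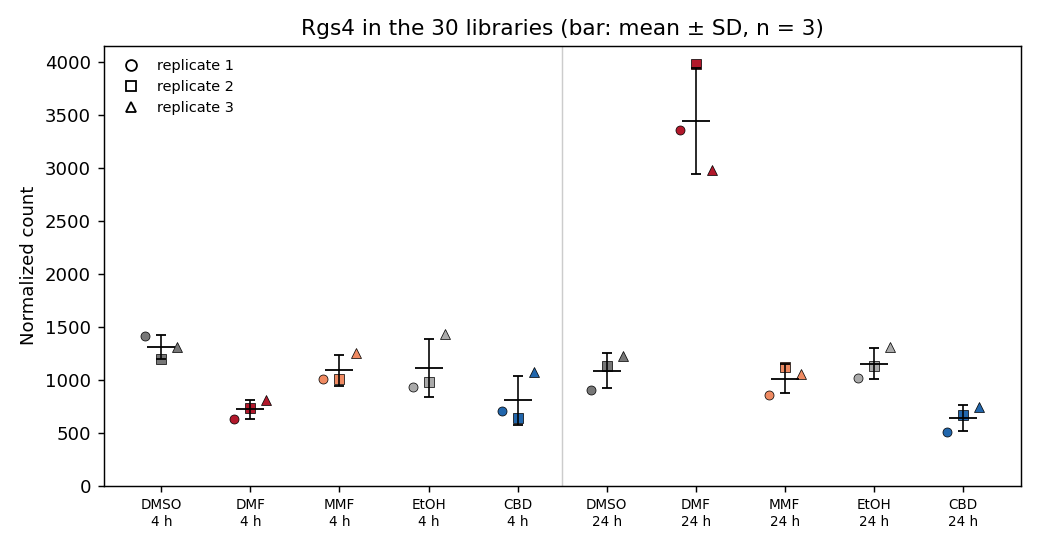
Normalized counts of *Rgs4* (vertical axis) in each of the 30 libraries, on a common scale, by treatment and time (horizontal axis). Symbols mark the replicate number, and bars give the mean ± SD of 3 libraries. The 3 libraries after DMF for 24 h lie between 2986 and 3978, and the libraries after DMF for 4 h (627 to 808) and CBD for 24 h (504 to 741) lie below all libraries of their vehicles.

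DMF at 4 h was accompanied by lower counts of 3 R4 members and by a higher count of *Rgs17*. In the DMF and DMSO table for 4 h, *Rgs4* had 646, 753 and 835 normalized counts in the DMF libraries and 1465, 1236 and 1365 in the DMSO libraries. The groups did not overlap, and the log2 fold change (log2FC, on the log2(normalized count + 1) scale) was −0.87 ± 0.11 (SE). *Rgs8*, a brain member of the R4 subfamily, had 321, 329 and 270 with DMF and 572, 580 and 483 with DMSO. Its log2FC was −0.83 ± 0.12, and its ratios within replicate numbers were nearly equal, at −0.83, −0.81 and −0.84 on the log2 scale.

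*Rgs16*, an R4 member and the chromosomal neighbour of *Rgs8*, had 469, 332 and 258 with DMF at 4 h against 572, 535 and 427 with DMSO. The groups overlapped through DMF replicate 1, while the log2FC was −0.57 ± 0.21 (−0.36 without DMF replicate 3) and every replicate number had the lower value with DMF. *Rgs17*, which acts on Gi/o and Gz alpha subunits, went the other way. It had 297, 322 and 290 with DMF and 224, 220 and 204 with DMSO, without overlap, for a log2FC of 0.48 ± 0.11.

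The remaining 5 measured members lay between −0.15 (*Rgs14*) and 0.17 (*Rgs10*) in log2FC at 4 h. Of these, only *Rgs10* had groups that did not overlap, with 455, 424 and 473 against 419, 375 and 410. Of the 9 members tested (*Rgs5* failed the filter on low counts), 2 were called (*Rgs4* and *Rgs8*, both lower, at an adjusted p below 0.05 in limma), where 3.41% of 14208 genes were called. Groups did not overlap for 4 members and for 26.3% of all genes. With the replicate number as a block, 4 members were called, *Rgs16* and *Rgs17* being added, and 23.0% of all genes. The genes were picked on this comparison, so these counts are a description.

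In the same DMF libraries at 4 h, limma called 1 marker in each of 2 marker lists. The neuron marker *Tubb3* fell, with a log2FC of −0.64 (limma adjusted p = 0.0250), the 1 called of 11 neuron markers tested. Of these 11, 7 had a log2FC above 0, and the median was 0.04. The pericyte marker *Pdgfrb* fell, with a log2FC of −1.26 (limma adjusted p = 0.0137), the 1 called of 6 pericyte and endothelial markers tested. Of these 6, 2 had a log2FC above 0, and the median was −0.08. With the replicate block, 1 marker was called higher and 1 lower in each list, beside 23.0% of all genes. Neuron markers summed to 4005 to 4773 CPM with DMF and 4369 to 5315 CPM with DMSO, and pericyte and endothelial markers to 17.8 to 20.4 CPM and 23.3 to 32.1 CPM. The part of these shifts in the *Rgs* values was not tested.

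At 24 h of DMF, *Rgs4* and *Rgs10* were the members with the highest values relative to DMSO. *Rgs4* had 3211, 3801 and 2853 normalized counts with DMF and 863, 1079 and 1172 with DMSO, a log2FC of 1.66 ± 0.13. Every DMF library held more than 2 times the highest DMSO value. *Rgs10*, a small R12 member described in microglia and in neurons, had 534, 535 and 549 with DMF and 357, 338 and 367 with DMSO. Its log2FC was 0.61 ± 0.08, and its DMF libraries were close to each other, at 539 ± 8.71 (SD, n = 3).

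*Rgs16* was also higher at 24 h, with 479, 550 and 550 against 392, 419 and 318, no overlap and a log2FC of 0.49 ± 0.12. *Rgs12* and *Rgs14*, the larger R12 members that carry a GoLoco motif for inactive Gi alpha subunits, had lower values. *Rgs12* had 882, 970 and 825 with DMF and 1020, 1251 and 1039 with DMSO, for a log2FC of −0.30 ± 0.10. *Rgs14*, known for its place in the CA2 field of the hippocampus, had 164, 191 and 154 against 211, 195 and 196, for −0.25 ± 0.12. *Rgs8* and *Rgs17*, which stood apart at 4 h, had overlapping groups and log2FCs of 0.15 ± 0.14 and 0.18 ± 0.12.

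Called at 24 h were 2 of 9 members, *Rgs4* and *Rgs10*, beside 3.97% of 13967 genes. Groups did not overlap for 5 members (*Rgs4*, *Rgs10*, *Rgs12*, *Rgs14* and *Rgs16*) and for 22.8% of all genes. With the replicate block *Rgs12* and *Rgs16* were added, for 4 members, where 12.9% of all genes were called. As at 4 h, the genes were picked on this comparison and the counts are a description.

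In the same DMF libraries the oligodendrocyte lineage markers *Pdgfra*, *Sox10* and *Cspg4* fell, with log2FCs of −1.56, −1.36 and −1.13 and 3 of 7 tested markers called and none higher. The sum of that list was 587 to 742 CPM with DMF and 742 to 895 CPM with DMSO. The astrocyte marker *Aldh1l1* fell as well, with a log2FC of −0.65 (limma adjusted p = 0.0403), 1 of 7 tested, while the astrocyte sum was 2939 to 5150 CPM with DMF and 2683 to 4512 CPM with DMSO. Microglia markers summed to 3.33 to 4.72 CPM with DMF and 3.03 to 3.35 CPM with DMSO. Of 11 neuron and 8 interneuron markers tested, limma called 0. Their median log2FCs were −0.12 and −0.25, with 2 and 3 markers above 0. Groups were apart for 5 and 3 of them, beside 22.8% of all genes. With the replicate block 1 neuron marker was higher and 4 lower, and 4 interneuron markers were lower and 0 higher, beside 12.9% of all genes. The part of these shifts in the *Rgs* values was not tested.

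**Figure D2:**
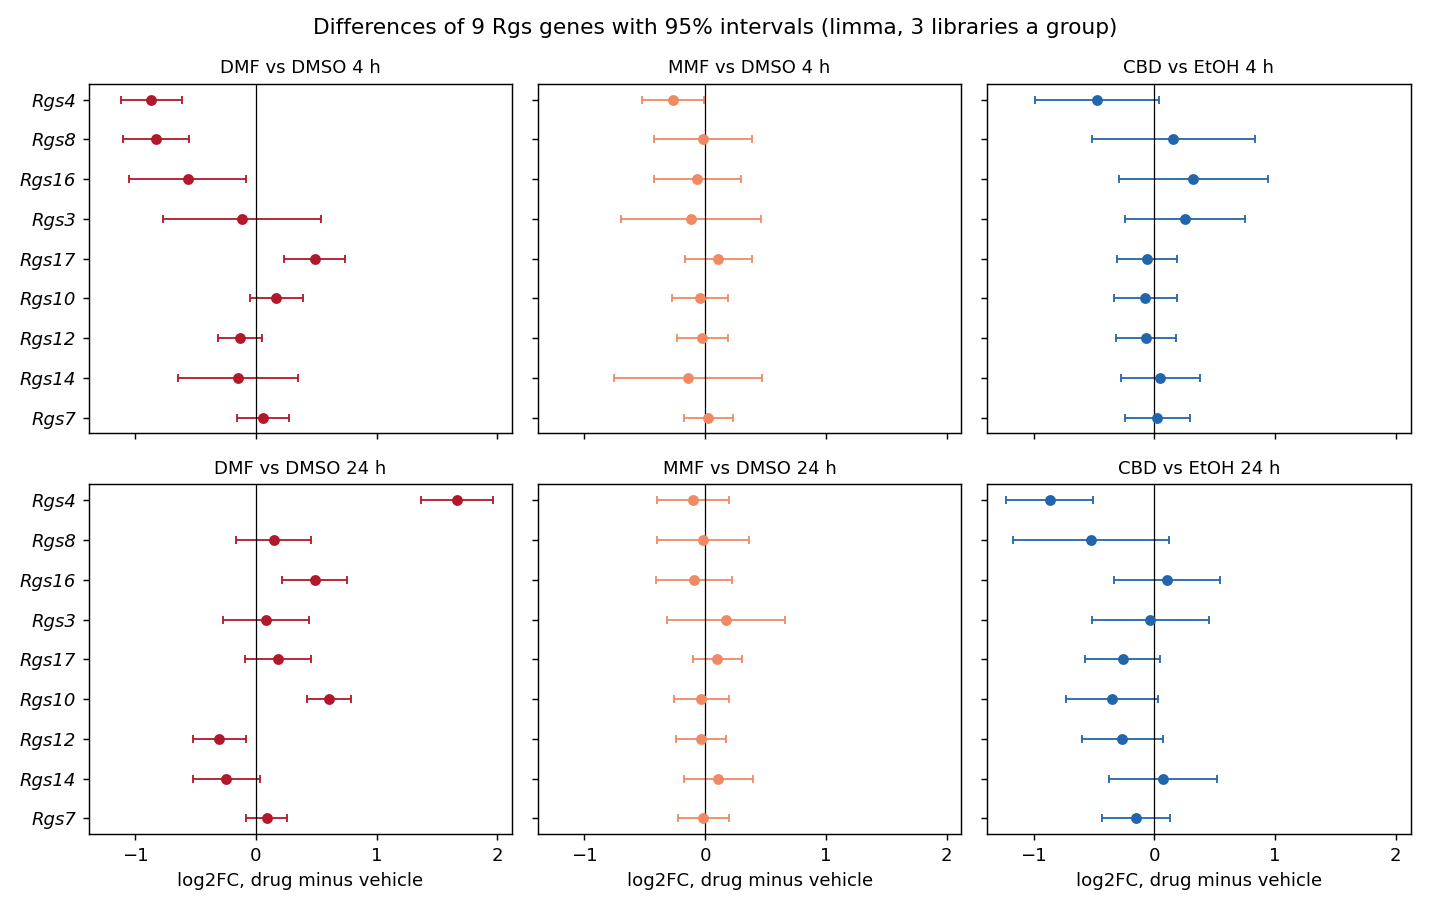
log2FC of drug against vehicle (horizontal axis, log2 scale) for the 9 measured members (rows), with points for the estimates and bars for 95% intervals, 3 libraries a group. Columns are the drugs and rows of panels the times. *Rgs4* sits at −0.87 after DMF for 4 h, at 1.66 after DMF for 24 h and at −0.87 after CBD for 24 h, and the estimates in the MMF panels stay within −0.27 to 0.17.

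Between the DMF times, *Rgs4* had 664, 774 and 855 normalized counts at 4 h and 3572, 4223 and 3182 at 24 h, a log2FC of 2.26 ± 0.12 for 24 h against 4 h. *Rgs8* had 330, 338 and 276 at 4 h and 618, 600 and 539 at 24 h, a log2FC of 0.90 ± 0.11. *Rgs16* (0.73 ± 0.19) and *Rgs10* (0.38 ± 0.09) were likewise higher at the later time without overlap. *Rgs17* was lower at 24 h without overlap, with 285, 262 and 226 against 306, 330 and 296 and a log2FC of −0.28 ± 0.12. The R4 genes *Rgs4*, *Rgs8* and *Rgs16* and the R12 gene *Rgs10* were the 4 members called, beside 15.5% of 14283 genes, again as a description of a comparison on which the genes were picked.

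Markers of several cell types also differed between the DMF times. *Gfap* of astrocytes (log2FC 1.31), *Olig1* of the oligodendrocyte lineage (0.62), *Pdgfrb* of pericytes (0.70) and *Dlx1* of interneurons (0.48) rose. *Cspg4* of the oligodendrocyte lineage (−0.70), *Cd68* of microglia (−0.90) and *Calb2* of interneurons (−0.50) fell. The called markers were 1 of 7 tested for astrocytes, 2 of 8 for the oligodendrocyte lineage, 1 of 5 for pericytes and endothelium, 2 of 8 for interneurons, 1 of 3 for microglia and 0 of 11 for neurons. The log2FC was above 0 for 3 of 7 astrocyte, 3 of 8 oligodendrocyte lineage, 2 of 5 pericyte and endothelial and 2 of 8 interneuron markers. The medians of these 4 lists were −0.03, −0.13, −0.29 and −0.13. Above 0 were also 0 of 3 microglia and 7 of 11 neuron markers. The astrocyte sum was 2042 to 3929.6 CPM at 4 h and 2939 to 5150 CPM at 24 h, and the microglia sum was 6.10 to 9.98 CPM and 3.33 to 4.72 CPM. The oligodendrocyte lineage sum was 476 to 649 CPM at 4 h and 587 to 742 CPM at 24 h, and the pericyte and endothelial sum was 17.8 to 20.4 CPM and 16.3 to 27.1 CPM. The part of these shifts in the *Rgs* values was not tested.

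The vehicles allow the same time step to be read without drug, and there no member passed the test. The DMSO libraries also entered the values by which the genes were picked. The stated reason for the pick did not use the EtOH libraries, though earlier results of these data were known. In DMSO, *Rgs4* had 1320, 1110 and 1223 at 4 h and 840, 1050 and 1147 at 24 h, a log2FC of −0.27 (95% interval −0.54 to −0.01, limma adjusted p = 0.496). In EtOH its log2FC was 0.07 (−0.30 to 0.44, adjusted p = 1.00), so the 2 vehicles gave values on either side of 0 with intervals that overlap. *Rgs14* was the one member whose DMSO groups did not overlap in time, with 121, 166 and 144 at 4 h and 206, 189 and 192 at 24 h. Its log2FC of 0.45 (0.13 to 0.78) had an adjusted p of 0.404, and 15.8% of all genes had groups apart in that comparison.

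By limma, 0 of 9 members were called between the times in DMSO, EtOH, MMF or CBD, where limma called 0 genes of 13968 to 14171 (0%). At an unadjusted p under 0.05, 3 members remained in DMSO (*Rgs4*, *Rgs14*, *Rgs16*), 0 in EtOH, 1 in MMF (*Rgs14*) and 1 in CBD (*Rgs3*), and DESeq2 and edgeR called 0 in each. With the replicate block *Rgs14* rose over time in MMF, with 92.5, 192 and 158 at 4 h and 203, 273 and 221 at 24 h. Its log2FC was 0.70 (0.12 to 1.29), with an adjusted p of 0.439 without the block and 0.0407 with it, where 1.82% of all genes were called. Between DMSO and EtOH, 0 of 9 members were called at 4 h and at 24 h, by limma, DESeq2 and edgeR, beside 0% of all genes in limma. There *Rgs12* was the 1 member at an unadjusted p under 0.05, lower in DMSO than in EtOH at 4 h by a log2FC of −0.25 (−0.43 to −0.07, adjusted p = 1.00).

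CBD for 24 h had the lowest *Rgs4* group mean of the series. The CBD libraries had 494, 654 and 725 normalized counts and the EtOH libraries 999, 1106 and 1285, without overlap. Within replicate numbers the log2 ratios were −1.02, −0.76 and −0.83, and the log2FC was −0.87 (95% interval −1.23 to −0.51). limma gave an adjusted p of 0.156, so the gene was not called, and edgeR gave 0.151. The replicate block gave 0.00948 and DESeq2 gave 0.000228, both past the threshold, and a fit sharing its spread over all 30 libraries gave 0.0131. Without any 1 library the log2FC stayed between −0.98 and −0.71, with limma adjusted p from 0.0549 to 0.688. The stated reason for picking the genes did not use these libraries, but the members were chosen with earlier results of these data known.

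At 4 h of CBD, *Rgs4* had 714, 651 and 1085 against 943, 994 and 1451 in EtOH. The groups overlapped because replicate 3 was the highest of both, but each replicate number had the lower value with CBD, with log2 ratios of −0.40, −0.61 and −0.42. The log2FC was −0.48 (−0.99 to 0.04), with an adjusted p of 1.00 without the block and 0.000145 with it, and it was −0.28 without EtOH replicate 3. The difference between the CBD effects at 24 h and 4 h was −0.39 (−1.05 to 0.27, limma adjusted p = 0.999), so a change of the effect over time was not shown.

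**Figure D3:**
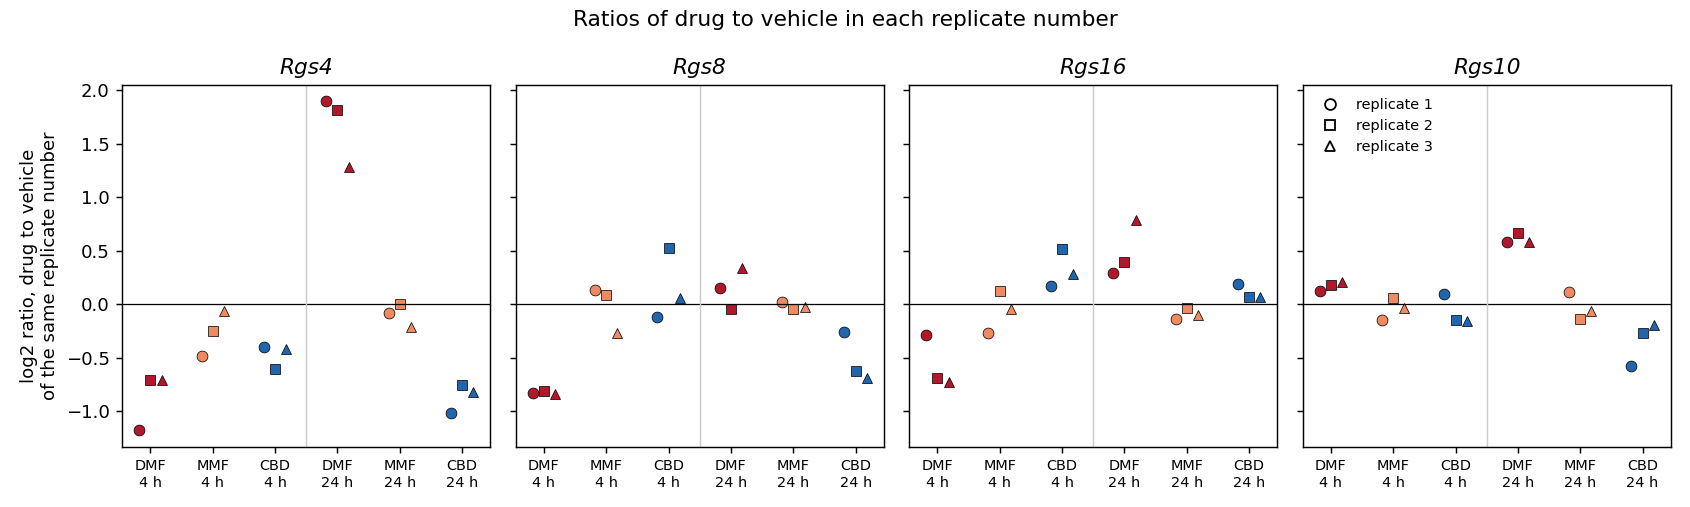
log2 ratio of drug to vehicle within each replicate number (vertical axis) for *Rgs4*, *Rgs8*, *Rgs16* and *Rgs10* in the 6 drug comparisons (horizontal axis). Each symbol is 1 replicate number. *Rgs4* lies below 0 in all 3 numbers after CBD at both times and after DMF for 4 h, and between 1.28 and 1.89 after DMF for 24 h.

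The other members moved less with CBD. *Rgs16* had 589, 817 and 418 with CBD at 4 h and 523, 571 and 345 with EtOH, higher in 3 of 3 replicate numbers, with a log2FC of 0.32 (−0.29 to 0.94). Its adjusted p was 1.00 without the block and 0.0283 with it. Leaving out 1 library moved this log2FC to between 0.083 (without CBD replicate 2) and 0.56 (without CBD replicate 3), and it was 0.10 without EtOH replicate 3. *Rgs8* at 24 h had 506, 432 and 249 with CBD and 607, 668 and 403 with EtOH, lower in 3 of 3 numbers, with overlapping groups and a log2FC of −0.53 (−1.17 to 0.12, adjusted p = 0.575, and 0.0948 with the block), or −0.22 without CBD replicate 3. *Rgs10* at 24 h had 305, 263 and 352 against 456, 318 and 404, a log2FC of −0.35 (−0.73 to 0.03, adjusted p = 0.541). *Rgs17*, at 196, 163 and 166 against 223, 207 and 200, did not overlap, and its log2FC was −0.26 (−0.58 to 0.05, adjusted p = 0.567).

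By limma, 0 of 9 members were called with CBD at 4 h and at 24 h, beside 0.00705% of 14193 and 0.114% of 14079 genes. At an unadjusted p under 0.05 there were 0 members at 4 h and 1 (*Rgs4*) at 24 h, DESeq2 called 0 and 1 (beside 0.0552% and 1.17% of the genes it tested), and edgeR 0 and 0. With the replicate block 2 members (*Rgs4* lower, *Rgs16* higher) were called at 4 h and 1 (*Rgs4*, lower) at 24 h, beside 2.33% and 0.504% of all genes. Groups were apart for 0 of the 9 tested members at 4 h, where 9.95% of all genes were, and for 2 members at 24 h, where 15.9% were. The median log2FC of the 9 members at 24 h was −0.26, and that of all genes was −0.00472. A low median was not particular to the members. It was −0.24 for neuron, −0.33 for interneuron and −0.37 for astrocyte markers. For oligodendrocyte lineage markers it was 0.00, for pericyte and endothelial markers −0.02 and for the 2 microglia markers tested 0.24.

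At 24 h of CBD, *Gad1* and *Gad2*, the enzymes that make GABA, fell by 0.81 and 0.84 on the log2 scale (adjusted p = 0.0134 and 0.0104 in limma), 2 of 8 tested interneuron markers, with none higher. Both calls depended on single libraries, since limma called 0 of all genes without EtOH replicate 1 and 0 without CBD replicate 2. Over all genes it called 3 without EtOH replicate 2 and 2 without EtOH replicate 3. Without CBD replicate 1 or CBD replicate 3 it called more genes than with all libraries. The interneuron marker sum was 361 to 429 CPM with CBD and 511 to 564 CPM with EtOH. Neuron markers summed to 4553 to 4903 CPM with CBD and 4933 to 5900 CPM with EtOH, and 0 of 11 were called. The part of these shifts in the *Rgs4* difference was not tested.

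MMF, which differs from DMF by the loss of a methyl ester group, was followed at the same dose and times. *Rgs4* had 954, 949 and 1189 normalized counts with MMF at 4 h and 1338, 1128 and 1245 with DMSO, with overlap and a log2FC of −0.27 (−0.53 to −0.01, adjusted p = 1.00). At 24 h it had 859, 1131 and 1060 against 908, 1133 and 1231, a log2FC of −0.10 (−0.40 to 0.20, adjusted p = 0.965). The DMSO libraries are those that the DMF values rest on, so the 2 sets of values are not independent. The difference between the MMF effects at 24 h and 4 h was 0.17 for *Rgs4* (−0.24 to 0.58, adjusted p = 1.00).

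No member was called with MMF by limma, DESeq2, edgeR or the replicate block at either time. limma called 0% of 14032 genes at 4 h, 36 of them having an unadjusted p under 0.05, and 0.00707% of 14137 at 24 h. With the block the shares were 0% and 1.38%. The 9 members lay between −0.27 and 0.11 in log2FC at 4 h and between −0.10 and 0.17 at 24 h, and *Rgs4* at 4 h was the 1 member at an unadjusted p under 0.05. *Rgs17* at 24 h was the 1 member with groups apart, at 226, 230 and 230 with MMF and 204, 222 and 214 with DMSO, where 9.73% of all genes had groups apart. Its log2FC was 0.10 (−0.10 to 0.30).

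DMF and MMF were then set side by side at 30 µM, for 2 times and 9 members, with p-values adjusted over all genes. The *Rgs4* values use the DMF libraries that chose it and are descriptive. The other members are read from the same DMF libraries, so their p-values are not independent of the DMF values described above. At 4 h it had 639, 745 and 825 with DMF and 1037, 1032 and 1293 with MMF, a log2FC of −0.60 (−0.90 to −0.31). At 24 h it had 3549, 4202 and 3149 with DMF and 905, 1188 and 1116 with MMF, a log2FC of 1.76 (1.47 to 2.05). Neither time showed overlap.

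Among the other members at 24 h, *Rgs10* and *Rgs16* were higher with DMF than with MMF. *Rgs10* had 590, 591 and 606 with DMF and 430, 338 and 387 with MMF, a log2FC of 0.64 (0.40 to 0.87) and an adjusted p of 0.0136. *Rgs16* had 529, 608 and 607 against 395, 451 and 328, a log2FC of 0.58 (0.29 to 0.87) and an adjusted p of 0.0445. Without DMF replicate 2 the *Rgs10* adjusted p was 0.0579, and for *Rgs16* 5 of 6 left-out libraries (all but MMF replicate 2) took it past the threshold, to between 0.0708 and 0.168. *Rgs12* had 975, 1072 and 910 with DMF and 1184, 1287 and 1095 with MMF, without overlap and lower in 3 of 3 replicate numbers. Its log2FC was −0.27 (−0.47 to −0.07), with an adjusted p of 0.165 without the block and 0.0213 with it. *Rgs14* had a log2FC of −0.36 (−0.69 to −0.02, adjusted p = 0.260), or −0.23 without MMF replicate 2.

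With *Rgs4*, 3 of 9 members were called at 24 h, beside 3.56% of 14233 genes, and groups were apart for 4 members and 22.7% of all genes. As *Rgs4* was picked on these DMF libraries, the counts are a description. For *Rgs3*, *Rgs7*, *Rgs8* and *Rgs17* at 24 h the intervals of DMF minus MMF were −0.63 to 0.44, −0.10 to 0.31, −0.15 to 0.48 and −0.19 to 0.35. A p that misses the threshold does not show that DMF and MMF acted alike on them.

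In this comparison too the oligodendrocyte lineage markers *Pdgfra* (−1.33), *Sox10* (−1.30) and *Cspg4* (−0.98) fell, 3 of 8 tested with none higher. Their list summed to 587 to 742 CPM with DMF and 799 to 824 CPM with MMF. The neuron marker *Nefm* fell by 0.62 on the log2 scale, 1 of 11 tested, and the neuron sum was 4155 to 5065 CPM with DMF and 4911 to 5332 CPM with MMF. The part of these shifts in the *Rgs10* and *Rgs16* differences was not tested.

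At 4 h *Rgs8* had 318, 326 and 267 with DMF and 622, 609 and 398 with MMF, without overlap. The log2FC was −0.81 (−1.23 to −0.40), with an adjusted p of 0.0701 in limma, 0.0620 in edgeR, 0.00125 in DESeq2 and 1.04e-05 with the replicate block. Leaving out MMF replicate 3, the lowest of its group, gave −1.02 and an adjusted p of 0.0254, while over the 6 left-out libraries the log2FC ran up to −0.70 and the adjusted p up to 0.213. *Rgs17* had 294, 318 and 286 with DMF and 237, 238 and 219 with MMF, a log2FC of 0.37 (0.12 to 0.62) and an adjusted p of 0.129, or 0.0119 with the block. *Rgs16* had 464, 328 and 255 against 469, 579 and 411, with overlap, a log2FC of −0.51 (an interval from −1.01 to just under 0) and an adjusted p of 0.284, or 0.00488 with the block. Without DMF replicate 3 its log2FC was −0.30.

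By limma, 0 of 9 members were called between DMF and MMF at 4 h, beside 1.61% of 14200 genes, with 4 (*Rgs4*, *Rgs8*, *Rgs16*, *Rgs17*) at an unadjusted p under 0.05. DESeq2 called 2 (*Rgs4* and *Rgs8*, beside 4.97% of the genes it tested), edgeR 0, and the replicate block 4 beside 23.6% of all genes. The comparison with MMF and that with DMSO share the DMF libraries. The pericyte marker *Pdgfrb* was lower with DMF here as well (log2FC −1.09, limma adjusted p = 0.0272), the 1 called of 5 pericyte and endothelial markers tested. The log2FC was above 0 for 4 of these 5, with a median of 0.27. Their list, in which *Pdgfrb* had the highest median CPM, summed to 17.8 to 20.4 CPM with DMF and 22.3 to 31.2 CPM with MMF. The part of the *Pdgfrb* difference in the *Rgs* values was not tested.

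On the common scale, the group means of the other members spanned less than those of *Rgs4*. The highest group mean was 2.04 times the lowest for *Rgs8*, 1.80 times for *Rgs10*, 1.75 times for *Rgs16*, 1.64 times for *Rgs17* and 1.61 times for *Rgs14*. It was 1.37 times for *Rgs12* and 1.14 times for *Rgs7*, with *Rgs3* between *Rgs12* and *Rgs14*. *Rgs7* varied least, with 829 to 1191 normalized counts over the 30 libraries.

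Replicate numbers left a mark on several members. *Rgs3* and *Rgs8* had their lowest value in replicate 3 in 10 of 10 groups, *Rgs16* in 9 of 10, and *Rgs12* and *Rgs17* in 7 of 10. *Rgs4* had its highest value in replicate 3 in 7 of 10 groups, *Rgs7* in 8 and *Rgs10* in 6. The summed astrocyte and pericyte markers were lowest in replicate 3 in 10 of 10 groups, and the summed neuron markers were highest there in 9 of 10. The part of these marker sums in the replicate pattern was not tested.

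*Rgs5*, an R4 gene best known as a pericyte marker, was near 0. It had 0 to 7 reads per library, 68 in all 30, and 0 reads in 11 libraries. It passed the filter on low counts in 0 of 15 comparisons. A library with 0 reads allows up to 3 reads by counting error alone. After CBD for 4 h it was listed at 5.34, 5.79 and 5.70 normalized counts and after EtOH at 3.45, 0.906 and 0, too few to test. The pericyte and endothelial markers summed to between 16.3 and 34.0 CPM, and *Kcnj8*, a defining pericyte gene, had a median of 0 CPM.

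The genes whose group means ran most like those of *Rgs4* were ranked by Pearson's r over the 10 group means of log2 CPM, among 14929 genes. These were *Tmem35a* (r = 0.957), a chaperone of nicotinic receptors, *Dclk1* (0.956), a microtubule-binding kinase of neurons, *Rcan2* (0.945), an inhibitor of calcineurin, *Fasn* (0.945), the fatty acid synthase, and *Spata2L* (0.944). The most opposite were *Fkbp2* (r = −0.958) and *Calr* (−0.952), both proteins of the endoplasmic reticulum, and *Hycc1* (−0.945). The r values are descriptive and have no p, and DMF at 24 h is the group farthest from the others in *Rgs4*. The 10 points share the animals' strain, the sequencing and the normalization, and r is across groups that are not all independent, since the same replicate numbers run through them.

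Over the 30 libraries centred on their replicate number, *Tmem35a* (0.905), *Fasn* (0.895), *Spata2L* (0.890) and *Rcan2* (0.864) remained among the 5 most alike. Among the members, *Rgs10* had the highest r with *Rgs4* over the group means (0.82), followed by *Rgs7* (0.66), *Rgs8* (0.51), *Rgs16* (0.40) and *Rgs17* (0.23). *Rgs14* (0.00), *Rgs3* (−0.14) and *Rgs12* (−0.31) came last.

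**Figure D4:**
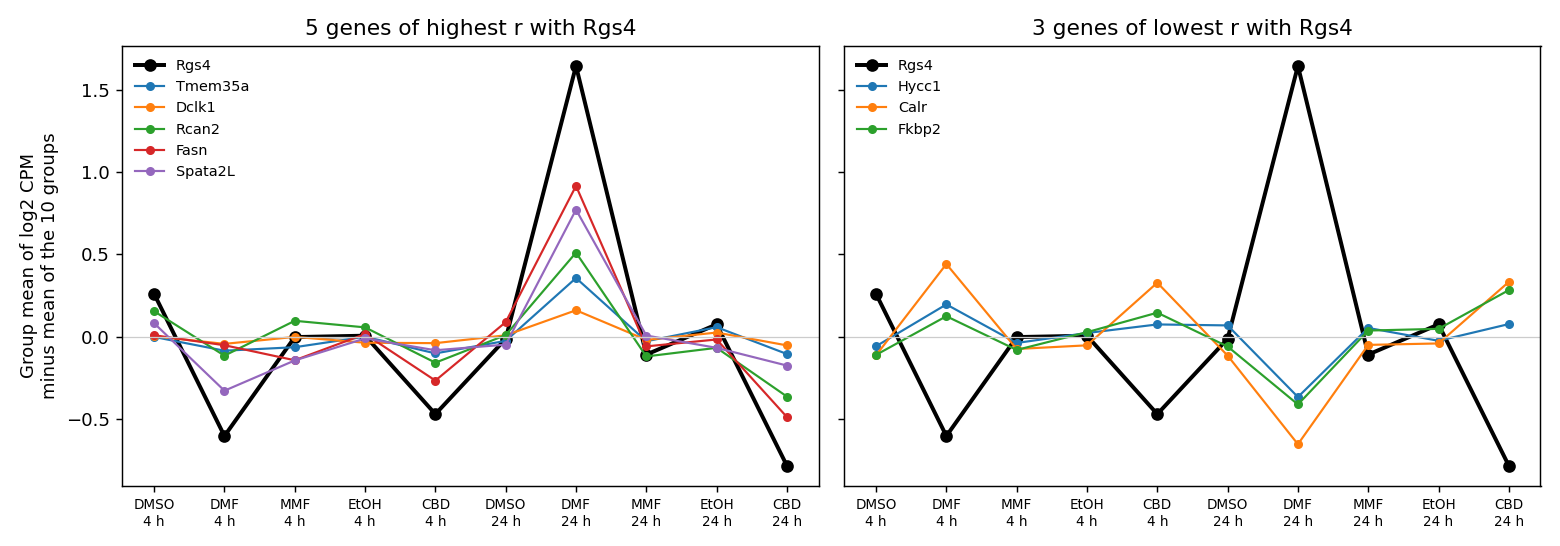
Group means of log2 CPM minus the mean of the 10 groups (vertical axes) by treatment and time (horizontal axes) for *Rgs4* (black) with the 5 genes of highest r (left) and the 3 of lowest r (right). *Rgs4* and the 5 genes peak after DMF for 24 h, where the 3 opposite genes have their lowest mean.

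The partners of RGS proteins were read from 6 lists of 117 genes, covering other RGS-domain regulators, G protein subunits, Gi- or Gq-coupled receptors, effectors, and receptor kinases and arrestins. Against DMSO at 4 h of DMF, 2 of the 102 genes tested rose and 2 fell, beside 3.41% of all genes called. With the replicate block 8 rose and 15 fell, beside 23.0%. *Gnb3*, a beta subunit, rose from 341 ± 15.5 to 577 ± 73.1 normalized counts (log2FC 0.75 ± 0.11, adjusted p = 0.0193) and *Adcy6*, an adenylyl cyclase, from 1893 ± 61.4 to 2450 ± 42.9 (0.37 ± 0.06, adjusted p = 0.0250). The receptors *Sstr2*, for somatostatin, and *Adra2a*, for noradrenaline, fell by 1.70 and 0.74 on the log2 scale (adjusted p = 0.0375 and 0.0494). The median log2FC was −0.13 over the 36 receptors tested and 0.03 over the 16 other RGS-domain regulators tested, against 0.00 over all genes.

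At 24 h of DMF, 1 of 103 rose and 3 fell, beside 3.97% of all genes (5 and 9 with the block, beside 12.9%). *Gng3*, a neuronal gamma subunit, rose from 1599 ± 102 to 2258 ± 83.3 (log2FC 0.50 ± 0.07, adjusted p = 0.00576). *Adra2a* (−0.50 ± 0.09), *Grm3* (−0.74 ± 0.14) and *Grm5* (−0.31 ± 0.07), the latter pair being metabotropic glutamate receptors, fell with adjusted p of 0.0209, 0.0243 and 0.0436. None of the 16 other RGS-domain regulators tested was called at 4 h or 24 h by limma. With the replicate block 2 of them were called at 4 h, both lower, and 0 at 24 h, beside 23.0% and 12.9% of all genes.

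Between the DMF times 14 of 103 list genes rose and 5 fell, beside 15.5% of all genes (27 and 11 with the block, beside 32.3%), and 11 of the 37 receptors tested rose while none fell. The muscarinic receptor gene *Chrm1* rose by 1.23 ± 0.16, *Adra2a* by 0.97 ± 0.12 and the somatostatin receptor gene *Sstr4* by 0.86 ± 0.11 in log2FC, and *Gnb3* fell by 1.28 on that scale. Of the 16 other RGS-domain regulators tested, limma called *Ric8a* higher (0.42 ± 0.08) and *Axin2* lower (−0.51 ± 0.13), beside 15.5% of all genes. With the block 4 of them were higher and 2 lower, beside 32.3%. The receptors' median log2FC was 0.47, against 0.00 over all genes, and 27 of 37 were above 0.

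The receptors were also mostly higher at 24 h without DMF. Their median log2FC for 24 h against 4 h was 0.26 in DMSO, with 31 of 36 above 0, and 0.25 with MMF, with 31 of 36 above 0. It was 0.12 in EtOH, with 28 of 37 above 0, and −0.12 with CBD, with 12 of 36 above 0. limma called 0 receptors in these 4 time steps. The replicate block called 5 in DMSO, 6 with MMF and 2 in EtOH, all higher, beside 1.47%, 1.82% and 1.05% of all genes, and 0 with CBD, beside 0.0142%. Whether the receptors rose more with DMF than in these groups was not tested.

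With MMF or CBD against their vehicles, limma called 0 list genes at either time, and with the replicate block it called 1 with CBD at 4 h and 2 with CBD at 24 h, beside 2.33% and 0.504% of all genes. Between DMF and MMF, 4 list genes were called at 4 h (*Gnb3* and *Adcy6* higher, *Sstr2* and *Adra1a* lower) and 2 at 24 h (*Gng3* higher, *Adra2a* lower), beside 1.61% and 3.56% of all genes. With the block there were 31 of 102 and 12 of 103, beside 23.6% and 12.2% of all genes.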

How the data were processed

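Poly(A)+ RNA was sequenced as paired ends. Per the labels and methods, the authors used FastQC 0.12.1, cutadapt 4.4, Trimmomatic 0.39, HISAT2 2.2.1 on mRatBN7.2, HTSeq 2.0.3 with Ensembl 111 genes and DESeq2 1.40.2. The deposited values are a signal of normalized counts, reads divided by the size factors of each of 15 tables, so values compare only within a table. The authors' fold changes and p-values in those tables were not used, and 4 tables comparing CBD with DMF or MMF were left out. Whole reads were recovered for 100% of values in every column (tolerance 0.001).

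limma 3.58.1 (R 4.3.3) was fitted to log2(normalized count + 1) with a mean-variance trend for each comparison of 3 against 3 libraries, on genes kept by edgeR's filterByExpr on the recovered reads. Benjamini-Hochberg adjustment ran over all genes tested, with a threshold of 0.05, and intervals are 95%. Alternatives were DESeq2 1.42.0 and edgeR 4.0.16 (quasi-likelihood) on recovered reads, no filter, TMM scaling, a pseudocount of 0.1, the replicate block, a spread from all 30 libraries and leaving out each library. The test was checked on counts simulated for DMF against DMSO at 4 h, without an effect of replicate number. That check therefore says nothing about the pairing described below.

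Deviations of same-numbered libraries from their group means had a positive r in all 15 comparisons (0.129 to 0.668, against at most 0.185 for other numbers and a set minimum of 0.1). For MMF against DMSO at 4 h, replicate 2 (0.129) lay below the highest r of other numbers (0.134). Between the DMSO times, replicate 1 (0.162) likewise lay below 0.185. The study states 3 independent experiments. The main limma fit had no block, so its calls, and the genes it did not call, leave this pairing out. The block was an alternative fit, and blocked values of the members stand where they change a call. CPM were computed from recovered reads with TMM scaling. The named genes were all 10 members, up to 3 called and non-overlapping list genes of smallest p per list, and the genes of the 5 highest and 3 lowest r with *Rgs4*. The members and lists were chosen with earlier results of these data known.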

Additional observations from a re-analysis of the deposited data

Results flagged for a closer look

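For several genes, all 3 replicate numbers moved one way under one drug or time and all 3 the opposite way under another. Between DMF at 4 h and at 24 h, the log2FC against DMSO went from −0.87 to 1.66 for *Rgs4*, a difference of 2.53, and from −0.57 to 0.49 for *Rgs16*, a difference of 1.05. The genes were picked on the first of these, and neither difference was tested.

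At 4 h, *Rgs16* was at −0.57 with DMF and 0.32 with CBD, which lies 0.89 higher, and *Rgs17* was at 0.48 with DMF and −0.06 with CBD, a difference of −0.55. *Rgs17* was also at 0.11 with MMF, and CBD minus MMF was −0.17. These 3 differences were not tested.

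At 24 h, MMF minus DMF was −1.76 for *Rgs4* and −0.58 for *Rgs16*, both opposite in every replicate number. The direct comparison of DMF with MMF covers this difference, with a limma adjusted p of 0.0445 for *Rgs16*. CBD minus DMF was −2.53 for *Rgs4*, from 1.66 to −0.87, and −0.96 for *Rgs10*, from 0.61 to −0.35. CBD minus MMF was 0.20 for *Rgs16*, from −0.09 to 0.11, and −0.36 for *Rgs17*, from 0.10 to −0.26. The 4 differences with CBD were not tested.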

How the results depend on the processing

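The replicate block moved the number of members called to 4 for DMF against DMSO at 4 h and at 24 h, to 2 for CBD at 4 h, to 1 for CBD at 24 h, to 1 for MMF at 24 h against 4 h, and to 4 for DMF against MMF at 4 h, and it changed no other count by over 1.5 times. DESeq2 moved CBD at 24 h to 1 and DMF against MMF at 4 h to 2, and the spread from all 30 libraries gave the same 1 and 2. Leaving out 1 library gave 0 to 2 called members for DMF against DMSO at 4 h (1 without DMSO replicate 1 or 2, 0 without DMF replicate 2), 2 to 3 between the DMF times (2 without DMF 24 h replicate 1, 2 or 3 or DMF 4 h replicate 2), 0 to 1 for DMF against MMF at 4 h (1 without MMF replicate 3) and 1 to 3 at 24 h (1 without DMF replicate 2). The cause was not tested. Over all genes the calls went from 485 to between 28 and 153, from 2216 to between 931 and 1906, from 229 to between 0 and 63, and from 506 to between 156 and 712 in the same 4 comparisons. Of 33 single-gene log2FCs, 1 changed sign, that of *Rgs4* with MMF at 24 h, which ran from −0.226 to 0.0171 and was above 0 without MMF replicate 1. The 33 were *Rgs4* in each drug comparison and other members only where their log2FC reached a set size. Values of other members near 0, which change sign most easily, were left out, so the count of sign changes says little. Leaving out 1 library took the adjusted p of a called gene over 0.05 in 20 cases, for *Rgs4* and *Rgs8* with DMF at 4 h, *Rgs10* and *Rgs16* between the DMF times and *Rgs10* and *Rgs16* between DMF and MMF at 24 h, and it brought that of *Rgs8* between DMF and MMF at 4 h under 0.05 in 1. Among values that were not called, *Rgs16* with CBD at 4 h ran from 0.083 to 0.56, *Rgs8* with CBD at 24 h from −0.75 to −0.22 and *Rgs16* with DMF at 4 h from −0.79 to −0.36. The *Rgs4* ratio of DMF to CBD at 24 h stayed between 4.95 and 6.27. With 3 libraries a group, the calls rest on few samples, and genes of low counts such as *Rgs5* could not be tested.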
